A study of Caenorhabditis elegans with 2 samples.

Results

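The 10 genes described here encode regulators of the seam and the epidermis of Caenorhabditis elegans: ceh-16, elt-1, elt-3, egl-18, elt-6, rnt-1, bro-1, lin-22, tlp-1 and grh-1. They were taken by name, out of 19973 nuclear protein-coding genes of the annotation. The rule uses no binding value, but the list was drawn up with earlier results of these data known. A peak was counted for a gene when its summit lay in the gene body or up to 5000 bp upstream of the gene's start, and the 20 kb to each side of ceh-16 were also searched. The study mapped where CEH-16 binds, by chromatin immunoprecipitation and sequencing (ChIP-seq), in a single group of 2 biological replicates. Both came from whole L3 larvae of strain OP82, recorded as males and females pooled and of unknown age. That strain carries unc-119(tm4063) III and the transgene insertion wgIs82, from which CEH-16 is made with GFP and FLAG joined to its C terminus. With a single group there is no contrast between conditions, and no p-value is given. In a sample of whole animals, binding in fewer cells and weaker binding per cell cannot be told apart, and peak lists hold no expression values with which to check the cells present.

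The seam is a row of lateral epidermal cells that divide like stem cells during larval life. At most divisions 1 daughter fuses with the surrounding hypodermal syncytium and the other stays in the seam. CEH-16, a homeodomain protein and the engrailed of the worm, keeps seam cells from fusing. Around it work GATA factors, among them ELT-1, which specifies the epidermis, ELT-3, which acts in hypodermal differentiation, and EGL-18 and ELT-6, which maintain seam fate. RNT-1, a RUNX factor, and its partner BRO-1, a CBF-beta homologue, promote seam cell proliferation. LIN-22 is a basic helix-loop-helix protein of the Hairy type, TLP-1 a zinc finger protein of tail patterning and asymmetric division, and GRH-1 the homologue of Grainyhead, a regulator of epidermal barrier genes in flies and mammals.

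Each deposited list gives a signal for every peak, the authors' own value on a scale the sources do not state, and it is used here only to describe and rank peaks within a list. The replicate 1 list held 19150 peaks with signals from 6.13 upward, the replicate 2 list 30000 from 8.14 upward and the pooled list 30000 from 11.5 upward. The list thresholded by reproducibility held 214 peaks, 189 of them nuclear, which were the 214 strongest of the pooled list, down to a signal of 43.6. No list carries read counts, so the depth behind a peak is unknown. A peak of a replicate was matched to a pooled peak when the summits lay within 200 bp.

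Strong CEH-16 peaks stood at a pair of the regulators, elt-1 and tlp-1, while most of the others carried peaks of middling or low signal, and ceh-16 itself carried none. A thresholded summit lay in the windows of 2 of the 10 genes, against 1.8% of all genes. A pooled summit lay at 8 of the 10, all but ceh-16 and bro-1, against 86.7% of all genes. A pooled summit matched in both replicates lay at 6 of the 10, against 34.8% of all genes. With matching within 50 bp it lay at 4 of the 10, a setting for which no share over all genes is given. Replicate 1 had a summit at 9 of them, all but ceh-16, against 74.9% of all genes, and replicate 2 at 8, against 87.1%. The 214 strongest peaks of each replicate alone touched 2 of the 10 genes each, but not the same pair. In replicate 1 they were lin-22 and tlp-1, against 1.74% of all genes, and in replicate 2 elt-1 and tlp-1, against 1.68%. Since most genes of this compact genome have a pooled summit within reach, the counts for the pooled and single-replicate lists lie near the background, and the values of the single peaks say more than the counts.

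The 8 windows with a pooled peak held 38 distinct pooled summits, of which 17 were upstream, 17 intronic, 2 in 3' UTRs, 1 in a 5' UTR and 1 in coding sequence. Of the 38, 31 had a listed regulator as the gene with the nearest start, where nearest starts were taken among protein-coding genes only. Summits matched in both replicates numbered 9, or 23.7% (exact 95% interval 11.4% to 40.2%, counting of peaks only), against 19.3% of all nuclear pooled summits. A further 7 were matched in replicate 1 only, 15 in replicate 2 only and 7 in neither. Median pooled signal was 16 at the 38 summits and 15.1 over all nuclear pooled summits. Per length of window, the median was 0.310 pooled summits per kb for the 10 genes and 0.290 for all genes. The strongest pooled signal per gene had a median of 24.6 over the 8 regulators with a peak and 18.1 over the 17315 genes with one. The windows of the regulators were longer, however, with a median of 9.48 kb against 7.03 kb, and longer windows catch more summits. The values are also not all separate, since egl-18 and elt-6 share their strongest summit (18.4). The strongest summits of grh-1 (27.2) and lin-22 (35.1) lie nearer to the start of another gene.

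**Figure D1:**
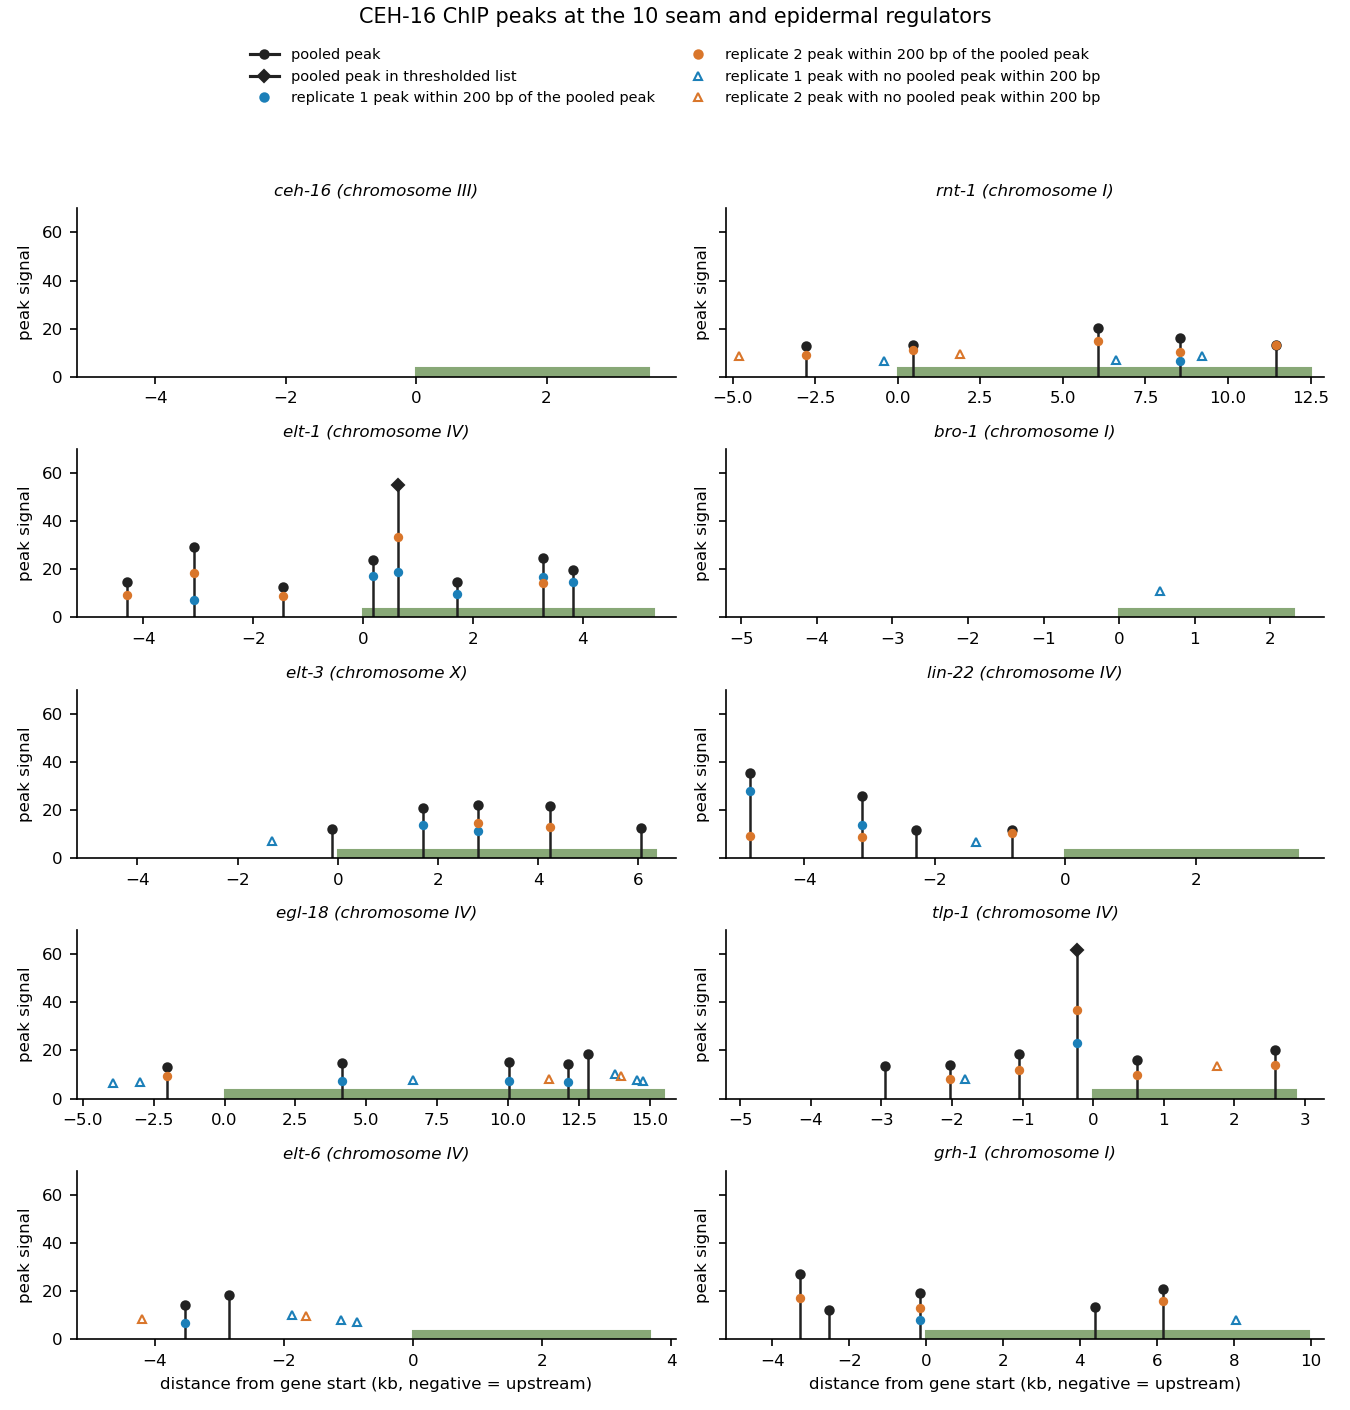
Peak signal (authors' value, scale not stated) against distance from the gene start in kb, negative upstream, for each of the 10 genes, with the gene body in green. Black marks are pooled peaks, diamonds are thresholded ones, blue and orange marks are replicates 1 and 2, and open triangles are replicate peaks without a pooled summit within 200 bp. Matched replicate marks are drawn at the position of the pooled summit, not at their own. Second replicate summits at a pooled peak are not drawn, nor are those matched to a pooled summit outside the window. Diamonds stand only at elt-1 (54.9) and tlp-1 (61.7), and the ceh-16 window is empty.

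**Figure D2:**
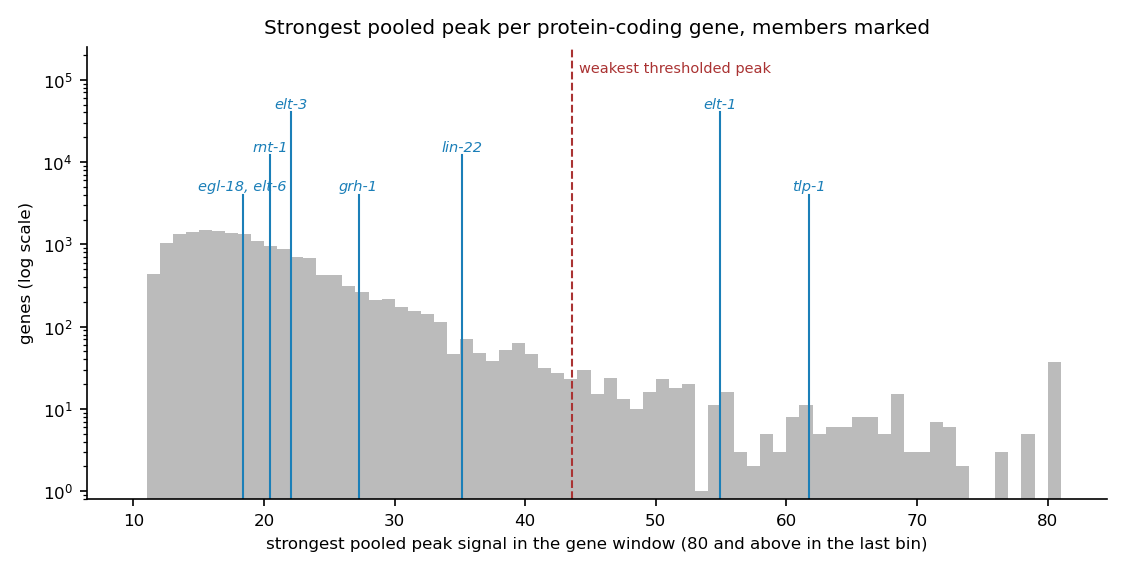
Number of protein-coding genes (log scale) by their strongest pooled peak signal in the window, with the 8 regulators that have a pooled peak marked by blue lines and the weakest thresholded signal (43.6) by a dashed line. elt-1 and tlp-1 lie beyond the dashed line, lin-22 short of it at 35.1, and the other 5 at 27.2 or lower.

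The GATA factor gene elt-1 (WBGene00001249, chromosome IV, 9614995 to 9620280, plus strand) had 8 pooled summits, the most of the 10 genes. Its strongest, in an early intron at 9615633 and 357 bp from the nearest start of an annotated elt-1 transcript, had a pooled signal of 54.9 (rank 111) and was in the thresholded list. Replicate 1 gave 19.0 there (rank 303) and replicate 2 gave 33.4 (rank 125), so it was among the 214 strongest peaks of replicate 2 but not of replicate 1. A stronger pooled peak stood at 167 other genes, 0.964% of those with one, and a peak that lies in several windows counts for each gene. The 101 bp around the summit are printed because this is the strongest peak within the body of any of the 10 genes, and they hold an AGATAA and, read on the other strand, a TGTGGT. Letters come from the ce11 (WBcel235) RefSeq genome, on the strand of the gene and 5′ to 3′. Capitals mark any match, on either strand, to 9 short motifs. Those of the engrailed type of homeodomain are the palindrome TAATTA, its relative TAATTG and the shared core TAAT. GATA factors bind TGATAA, or in a common variant AGATAA, and RUNX factors bind TGTGGT. The remaining motifs are the E box CACGTG, the repeat GAGAGA and the word CGCGCA.
elt-1 intron, chrIV:9615583-9615683, plus strand: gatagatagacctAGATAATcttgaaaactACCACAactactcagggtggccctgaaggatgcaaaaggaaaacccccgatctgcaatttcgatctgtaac

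Of the other elt-1 summits, those at 9611918, 3077 bp upstream, and at 9618276, in a later intron, were also matched in both replicates. The upstream one had pooled signal 29.1 (rank 1016), replicate 1 signal 7.21 and replicate 2 signal 18.5. The intronic one had pooled signal 24.6 (rank 2124), replicate 1 signal 16.8 and replicate 2 signal 14.5, and replicate 1 had a second, lower summit there at 9618353 (7.29). Replicate 2 ranked the upstream one higher and replicate 1 the intronic one. Peaks matched in replicate 1 alone were those at 9615174, in coding sequence 13 bp from a transcript start, at 9618823 and at 9616697, both intronic. The first had pooled signal 23.8 (rank 2449) and replicate 1 signal 17.2, the next 19.6 (rank 5913) and 14.6, and the last 14.6 (rank 16464) and 9.84. The summits matched in replicate 2 alone lay upstream at 9610700 (pooled signal 14.9, rank 15678, and 9.14 in replicate 2) and at 9613539 (pooled signal 12.4, rank 25340, and 8.94 in replicate 2). Every elt-1 summit was thus found in at least 1 replicate list. Per kb of window elt-1 had 0.778 pooled summits, and 2.54% of all genes had more. A pair of pooled peaks just beyond the 5000 bp limit, 5508 and 5729 bp upstream, had signals of 25.1 and 28.8.

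At elt-3 (WBGene00001251, chromosome X, 13934874 to 13941216, plus strand), a GATA factor gene of the differentiating hypodermis, the 3 strongest of 5 pooled summits were intronic and close in signal. The first, at 13937676, had a pooled signal of 22.0 (rank 3537), 11.0 in replicate 1 and 14.4 in replicate 2, the only elt-3 summit matched in both. Its replicate 1 and replicate 2 summits lay 122 and 43 bp from the pooled one. Next came 13939108 with 21.5 (rank 3979), found in replicate 2 only (12.7), and 13936572 with 20.6 (rank 4689), found in replicate 1 only (13.8). The 2 weakest, in the 3' UTR at 13940937 (12.5, rank 24999) and 123 bp upstream of the start at 13934751 (11.8, rank 28292), were in neither replicate list. Replicate 1 alone had a peak of 7.16 (rank 13014) at 13933568, 1306 bp upstream. A stronger pooled peak than 22.0 stood at 26.3% of genes with one. The first intronic window is printed for its TGATAA, the letters GATA factors bind, and the one at 13936572 for its CAATTA, which is TAATTG read on the other strand.
elt-3 intron, chrX:13937626-13937726, plus strand: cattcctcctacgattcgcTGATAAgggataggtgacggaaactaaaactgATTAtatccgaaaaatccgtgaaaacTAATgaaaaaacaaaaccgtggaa
elt-3 intron, chrX:13936522-13936622, plus strand: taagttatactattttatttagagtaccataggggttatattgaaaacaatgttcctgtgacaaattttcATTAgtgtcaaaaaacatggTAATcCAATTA

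The neighbouring GATA factor genes egl-18 (WBGene00001186, chromosome IV, 1902322 to 1917840) and elt-6 (WBGene00001253, 1917977 to 1921643) lie 136 bp apart on the plus strand, and the introns of egl-18 fill most of the upstream window of elt-6. None of their pooled summits was matched in both replicates. The strongest, at 1915133 in an egl-18 intron and 2844 bp upstream of elt-6, had a pooled signal of 18.4 (rank 7604) and was in neither replicate list. A second shared summit, at 1914447, had 14.3 (rank 17756), with 6.85 in replicate 1. These 2 were the only pooled summits of elt-6, so its values are not independent of those of egl-18. In the first intron of egl-18 stood summits at 1912358 (15.3, rank 14336) and 1906458 (14.7, rank 16195), each matched in replicate 1 only (7.33 and 7.35). The last, at 1900289 and 2033 bp upstream, had 13.0 (rank 22841) and was matched in replicate 2 only (9.50). Replicate 1 listed 9 summits in the egl-18 window, up to 10.2, and replicate 2 listed 3, up to 9.50, so this gene drew more peaks in the shorter list. The replicate 1 peaks without a pooled summit stood at 1916097 (10.2), 1908972 (7.83), 1916867 (7.79), 1917105 (7.19), 1899320 (7.03) and 1898392 (6.44), at ranks from 4025 to 17051. Those of replicate 2 stood at 1916327 (9.50, rank 21375) and 1913787 (8.23, rank 29353). Of these, 3 replicate 1 and both replicate 2 peaks lie in the window of elt-6 as well. The replicate 1 peak at 1916097 and the replicate 2 peak at 1916327 overlap, from 1916152 to 1916271, but their summits lie more than 200 bp apart. Inside elt-6 replicate 2 had a summit of 10.5 (rank 16422) at 1921594, whose pooled counterpart, at 1921668 with 14.9 (rank 15502), lies just past the end of the gene. For both genes a stronger pooled peak than 18.4 stood at 48.1% of genes with one, close to the middle of the distribution. The shared window is printed because it is the strongest peak of both genes, and of the 9 motifs it holds TAAT alone.
egl-18 intron and elt-6 upstream, chrIV:1915083-1915183, plus strand: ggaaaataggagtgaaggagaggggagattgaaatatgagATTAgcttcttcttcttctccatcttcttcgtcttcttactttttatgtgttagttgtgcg

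The Hairy-type gene lin-22 (WBGene00003008, chromosome IV, 3019738 to 3023304, plus strand) had 4 pooled summits, all upstream and none in the gene. The strongest, at 3014902, had a pooled signal of 35.1 (rank 469), and 4.25% of genes with a pooled peak had a stronger one. The replicate values were far apart there. Replicate 1 gave 28.0 at rank 85, with its summit 122 bp away, while replicate 2 gave 9.11 at rank 23596. A lower replicate 1 summit, 6.80, stood at 3014980. The peak lies 4836 bp upstream, just inside the 5000 bp limit. The nearest start of a protein-coding gene is that of vrp-1, 2315 bp away, and the ncRNA gene Y54G2A.67 lies within 200 bp of the summit. At 3016619, 3119 bp upstream with lin-22 as the nearest start, the pooled signal was 25.9 (rank 1703), with 13.6 in replicate 1 (rank 1208) and 8.62 in replicate 2 (rank 26732), again with the higher rank in replicate 1. The summits nearer the gene were weak, with a pooled signal of 11.6 each, at 3018924 (rank 29481, matched in replicate 2 only at 10.2) and at 3017445 (rank 29712, in neither). Replicate 1 alone had a peak of 6.54 (rank 16457) at 3018371. Both strong windows hold none of the 9 motifs, and their GC contents of 49.5% and 56.4% exceeded the 34.6% ± 7.90 (SD) of equal windows at all nuclear pooled summits; they are printed to show this.
lin-22 upstream, chrIV:3014852-3014952, plus strand: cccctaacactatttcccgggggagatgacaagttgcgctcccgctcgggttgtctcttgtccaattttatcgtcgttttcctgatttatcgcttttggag
lin-22 upstream, chrIV:3016569-3016669, plus strand: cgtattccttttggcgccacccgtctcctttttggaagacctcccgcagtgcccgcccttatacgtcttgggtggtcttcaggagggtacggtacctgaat

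The strongest peak at any of the 10 genes stood just upstream of tlp-1 (WBGene00006580, chromosome IV, 13701208 to 13704082, minus strand). Its summit at 13704316, 234 bp before the gene start, had a pooled signal of 61.7 (rank 86) and was in the thresholded list. Replicate 1 gave 23.3 (rank 153) and replicate 2 gave 36.9 (rank 93), with summits 1 and 11 bp from the pooled one. Of the genes with a pooled peak, 121 (0.699%) had a stronger one. By strongest signal the next gene above was blmp-1 (61.9), whose Blimp-type zinc finger protein also acts in the epidermis. The next below was a peak of 61.6 that counts for 3 genes, the collagen gene col-93 among them. The elt-1 peak had above it a peak of 55.1 that counts for 6 genes, tag-115 among them. Below it was a peak of 54.9 that counts for 2 genes, T23D8.3 among them.

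At the strong tlp-1 summit the 101 bp window contains no match to any of the 9 motifs. The other 5 tlp-1 summits were weaker, and none was matched in replicate 1. In the 3' UTR, at 13701513, the pooled signal was 20.4 (rank 4968), with 14.0 in replicate 2. At 13705129, 1047 bp upstream, it was 18.4 (rank 7481), with 11.7 in replicate 2. The first intron had 16 at 13703457 (rank 12669), with 9.71 in replicate 2. These 3 were found in replicate 2 but not in replicate 1. Further upstream stood 14.0 at 13706113 (rank 18825, 8.14 in replicate 2) and 13.6 at 13707035 (rank 20206, in neither replicate). Without a pooled summit were a replicate 1 peak of 8.24 (rank 8577) at 13705904 and a replicate 2 peak of 13.4 (rank 7228) at 13702324, in coding sequence. A replicate 2 peak of 11.7 (rank 11802) at 13701242, close to the end of the gene, belongs to a pooled peak whose summit, at 13701144, lies beyond it (15.9, rank 12875). Replicate 2 listed 7 summits in the window and replicate 1 listed 2. Of the 6 pooled summits, 4 lay within 200 bp of annotated piRNA genes, which are dense along this arm of the chromosome and whose part in these peaks was not tested; the strongest was not among them. Pooled summits numbered 0.762 per kb of window, and 2.81% of all genes had more. The summit 1047 bp upstream is printed beside the strong one because its sequence has several TAAT cores and a TAATTG, while its signal is lower.
tlp-1 upstream, strong peak, chrIV:13704266-13704366, minus strand: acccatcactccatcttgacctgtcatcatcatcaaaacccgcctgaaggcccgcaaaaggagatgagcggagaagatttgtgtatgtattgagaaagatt
tlp-1 upstream, weaker peak, chrIV:13705079-13705179, minus strand: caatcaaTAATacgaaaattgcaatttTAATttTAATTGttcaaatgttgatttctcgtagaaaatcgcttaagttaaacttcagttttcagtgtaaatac

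**Figure D3:**
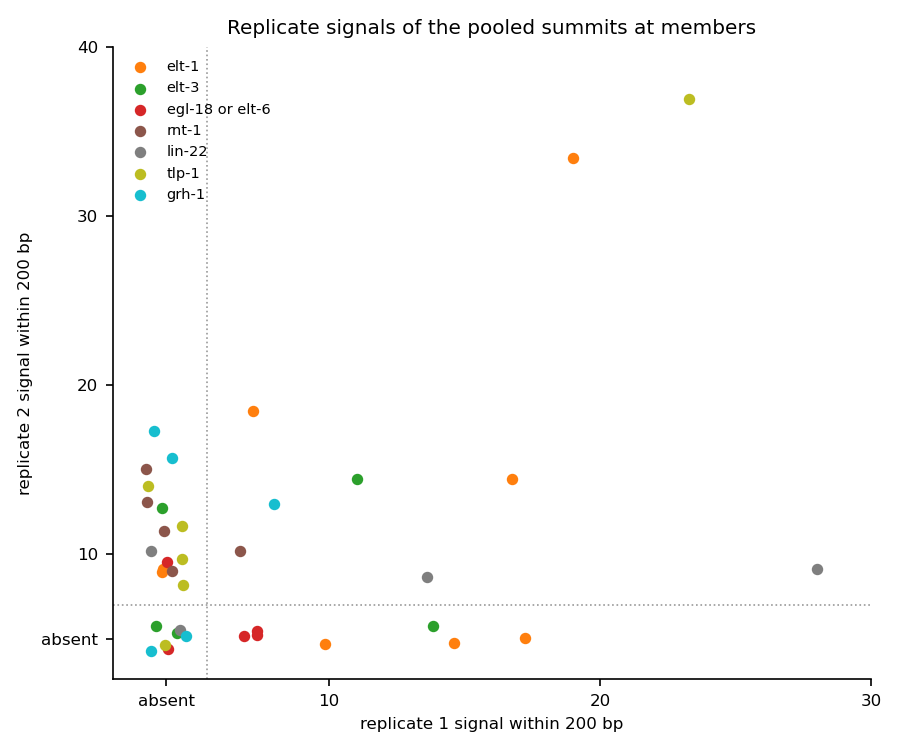
Replicate 2 signal against replicate 1 signal (authors' values, each on its own list's scale) for the 38 pooled summits, coloured by gene, with summits missing from a list placed in the bands marked absent, where their spread has no meaning. The elt-1 (19.0 and 33.4) and tlp-1 (23.3 and 36.9) peaks lie high on both axes, and the strongest lin-22 peak lies at 28.0 in replicate 1 and 9.11 in replicate 2.

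The RUNX partners differed from each other. The RUNX gene rnt-1 (WBGene00004393, chromosome I, 5776093 to 5788611, plus strand) had 5 pooled summits. The strongest, in its intron 3 at 5782154, had a pooled signal of 20.5 (rank 4851) and was matched in replicate 2 only (15.1). An intronic summit at 5784643 was the only one matched in both replicates, with signals of 16 in the pooled list (rank 12647), 6.74 in replicate 1 and 10.2 in replicate 2. The nearest gene start to it is that of cpb-3, 7109 bp away. The remaining 3 were weaker and in replicate 2 only. They stood in the 5' UTR at 5776545 (13.2, rank 21903, and 11.3 in replicate 2), in a late intron at 5787544 (13.1, rank 22439, and 13.1 in replicate 2) and at 5773313, 2780 bp upstream (12.9, rank 23466, and 9.0 in replicate 2). The nearer start is that of cpb-3 for the one at 5787544 and of hil-5 for the one at 5773313, which lies in the 3' UTR of lron-8. Replicate 2 thus found all 5 pooled summits of rnt-1 and replicate 1 found 1. Replicate 1 alone had peaks of 8.84 (rank 6747) at 5785314, 6.94 (rank 14166) at 5782697 and 6.74 (rank 15298) at 5775690, and replicate 2 alone had 9.71 (rank 20209) at 5777966 and 8.67 (rank 26357) at 5771289. A stronger pooled peak than 20.5 stood at 34.2% of genes with one. The cofactor gene bro-1 (WBGene00000272, chromosome I, 5186926 to 5189240, plus strand) had no pooled and no replicate 2 summit. Its single peak, in the first intron at 5187463, had a signal of 11.2 in replicate 1 (rank 2738). That a replicate 1 peak of this strength has no pooled summit within 200 bp was uncommon but not rare, since the same held for 429 of the 2738 replicate 1 peaks at least as strong (15.7%) and for 42.5% of the whole replicate 1 list.

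The Grainyhead gene grh-1 (WBGene00001707, chromosome I, 1258201 to 1268155, minus strand) had 5 pooled summits. The strongest of them, at 1271434 and 3279 bp upstream, had a pooled signal of 27.2 (rank 1365) and 17.3 in replicate 2, with no match in replicate 1, and lay 82 bp from the start of another gene, Y48G8AR.8. Just upstream of grh-1 itself, at 148 bp, was the one summit matched in both replicates, at 1268303, with signals of 19.2 in the pooled list (rank 6331), 7.99 in replicate 1 and 13.0 in replicate 2. An intronic summit at 1261983 had 20.7 (rank 4596), with 15.7 in replicate 2. The last pair, at 1263775 (13.2, rank 21891) and 1270681 (11.9, rank 27795), was in neither replicate, and replicate 1 alone had a peak of 7.87 (rank 9805) at 1260095. Of the 5 pooled summits replicate 2 thus found 3 and replicate 1 found 1. A thresholded peak stood just outside the window, 5774 bp upstream of grh-1 and 2413 bp from the start of Y48G8AR.8. Its summit at 1273929 had a pooled signal of 52.2 (rank 127), with 20.9 (rank 206) for replicate 1 and 27.4 (rank 264) for replicate 2, close in strength to the elt-1 peak. With windows reaching 10000 bp upstream, 3 of the 10 genes have a thresholded summit instead of 2, against 2.72% of all genes with such windows.

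The gene of the immunoprecipitated factor, ceh-16 (WBGene00000439, chromosome III, 8622735 to 8626314, plus strand), had no summit in any of the 4 lists, either in the gene or in the 5000 bp upstream. The 20 kb to each side held no thresholded summit and 3 pooled ones, all on the right. They stood at 8638660, in an intron of twk-7, at 8643902 and at 8645013, with signals of 16.8 (rank 10586), 15.6 (rank 13510) and 17.7 (rank 8753), against a median of 15.1 over all nuclear pooled summits. In the same span replicate 1 listed 4 summits, also on the right, at 8633469 (6.93, rank 14214), 8634737 (7.79, rank 10160), 8638438 (8.42, rank 7983) and 8638663 (7.71, rank 10505). Replicate 2 listed 5, again on the right, at 8631102 (28.9, rank 221), 8634539 (15.1, rank 4419), 8636671 (9.68, rank 20359), 8643902 (13.9, rank 6232) and 8645199 (13.4, rank 7236). All but the one at 8631102 ranked 4419 or lower in their lists.

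Around ceh-16 the stretch without a pooled summit ran from 8595590 to 8638660, or 43.1 kb, and held the starts of 10 protein-coding genes. Of 29969 distances between neighbouring nuclear pooled summits, whose median was 2114 bp, 12 were longer, so that 0.0434% were at least as long. In replicate 1 the gap was 45.7 kb, with 23 of 19118 longer, and in replicate 2 it was 33.9 kb, with 29 of 29970 longer. No list had a summit between 8597155 and 8631102, a stretch of 33.9 kb with 9 gene starts that reaches 25.6 kb to the left of ceh-16 and 4.79 kb to its right. For comparison, the gap at bro-1 was 32.6 kb in the pooled list (36 longer) and in replicate 2, but 7.19 kb in replicate 1. At the other 8 genes the pooled gap holding the gene start measured 0.859 kb at tlp-1 to 6.54 kb at elt-6. Each gap counts once here, but a long gap can hold many gene starts, as with the 10 at ceh-16. The 0.0434% and the counts of longer gaps therefore describe gaps, not genes. They make such a gap look rarer than it is at a chosen gene. Reads from the ceh-16 transgene and from the native gene share their sequence and cannot be told apart, the labels do not give the extent of the inserted DNA, and the control set against these libraries was not analysed here.

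Where the empty stretch ends on the right, at 8631102 and 63 bp from the start of dnj-10, stood the replicate 2 peak of 28.9. The pooled list has no summit within 200 bp of it; the nearest is 7558 bp away. Of the 221 strongest replicate 2 peaks it was 1 of 2 without a pooled summit within 200 bp (0.905%, against 32.4% of the whole replicate 2 list), and the other, on the mitochondrial genome, lay 209 bp from one. Replicate 1 listed no peak there. This pattern of a strong replicate peak missing from the pooled list was found after its values were seen.

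**Figure D4:**
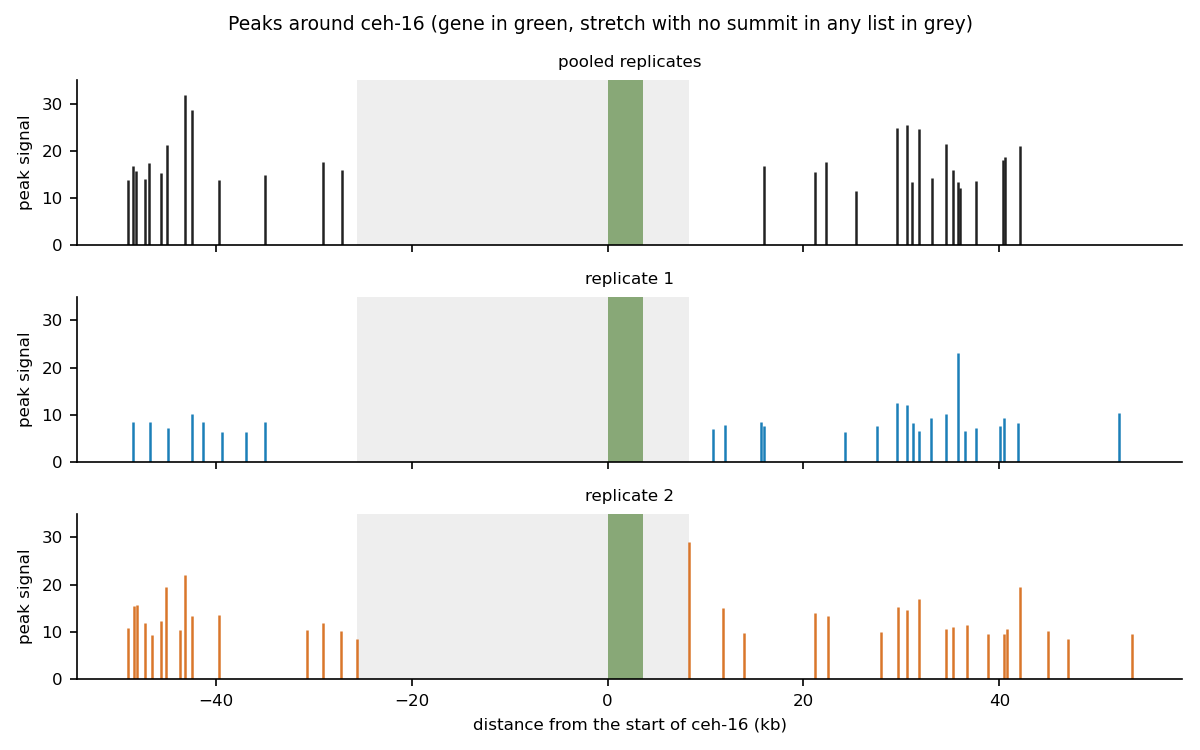
Peak signal against distance from the ceh-16 start in kb, one panel each for the pooled, replicate 1 and replicate 2 lists, with ceh-16 in green and the 33.9 kb without a summit in any list in grey. Peaks resume on both sides of the grey stretch, and the tallest line of the replicate 2 panel, 28.9, stands at its right edge with no line in the other panels.

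**Figure D5:**
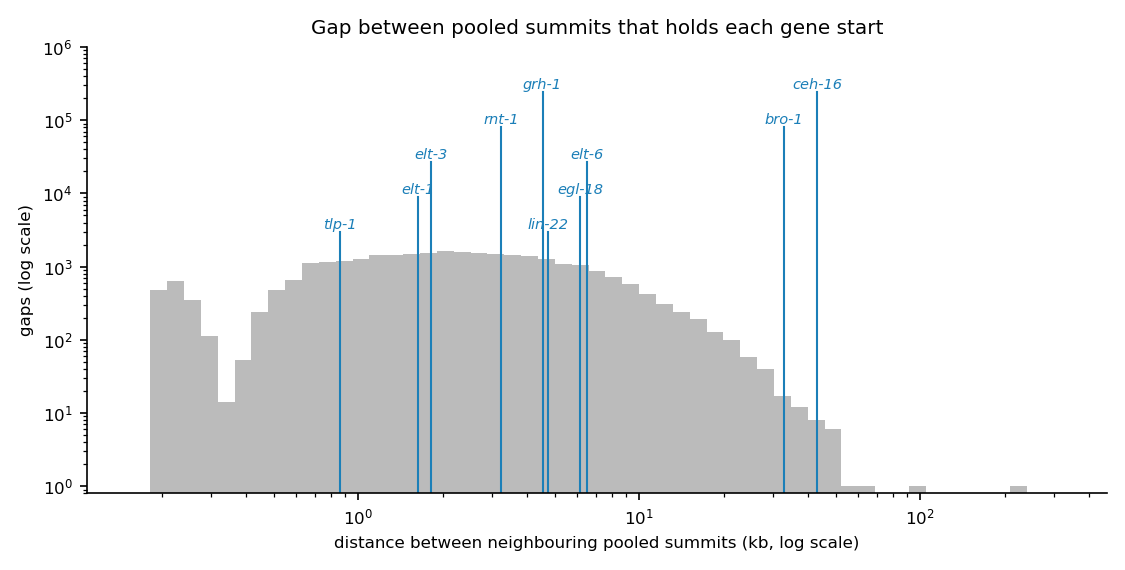
Number of distances between neighbouring nuclear pooled summits (log scale) by length in kb (log scale), with the distance that holds each gene start marked in blue. ceh-16 (43.1 kb) and bro-1 (32.6 kb) lie in the far right tail and the other 8 genes between 0.859 and 6.54 kb. Each distance counts once, so the tail does not show how often a gene start lies in such a distance.

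Sequence at the 38 summits was described by the 9 motifs within 50 bp of the summit, on both strands, where TAAT is contained in TAATTA and TAATTG. The full palindrome TAATTA was at 0 of 38 summits, which allows a share of up to 9.25% (exact 95% interval), against 5.24% of all nuclear pooled summits. TAATTG was at 4, or 10.5%, against 9.17%, and TAAT at 23, or 60.5%, against 66.4%. None of the 9 summits matched in both replicates held TAATTG. Of the GATA letters, TGATAA was at 7 summits, or 18.4%, against 9.96%, and AGATAA at 3, or 7.89%, against 6.52%. The RUNX letters TGTGGT were at 4 summits, or 10.5% (exact interval 2.94% to 24.8%), against 3.45%, and these were 2 summits of elt-1, at 9615633 and 9618823, and 2 of rnt-1, at 5784643 and 5776545. CACGTG was at 1 summit (2.63%, against 1.48%), GAGAGA at 2 (5.26%, against 6.73%) and CGCGCA at 2 (5.26%, against 1.75%). For all 9 motifs the exact interval at the listed genes contains the share of all pooled summits; with 25 bp to each side the TGTGGT share, again 10.5%, had an interval above the 1.72% of all pooled summits, and it was the one motif of the 9 at that width. With 100 bp to each side it was at 6 summits (15.8%, interval 6.02% to 31.3%), and the 6.82% of all pooled summits lay inside the interval. At that width TAATTA was at 4 of the 38 summits (10.5%, against 10.05%), where the narrower windows had none. GC content within 200 bp of the summit averaged 36.0% ± 6.07 at the 38 summits and 34.7% ± 5.12 at all nuclear pooled summits (SD).

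Further genes of the same biology were read from 3 lists. Of 17 other epidermal regulators, 16 had a pooled summit in the window, 10 had one matched in both replicates (against 34.8% of all genes) and 2 had a thresholded one (against 1.8%), with a median strongest signal of 23.5 over the 16. The thresholded ones were blmp-1 and the homeodomain cofactor gene unc-62. The blmp-1 peak had 61.9 at 3168 bp upstream, with 28.6 in replicate 1 and 31.2 in replicate 2. The unc-62 peak had 46.9, with 10.6 in replicate 1 and 39.3 in replicate 2. It lies 10515 bp into the gene, in a 5' UTR, and nearer to the start of T28F12.1. The nuclear receptor genes nhr-25 (38.9), which acts in seam and epidermal development, and nhr-23 (32.8), a regulator of moulting, followed, both matched in both replicates. Of 9 genes of seam division and fusion, all 9 had a pooled summit, 3 had one matched in both replicates and none had a thresholded one, with a median strongest signal of 18. The highest values were 29.6 at the kinase gene lit-1 and 27.3 and 21.0 at the beta-catenin genes wrm-1 and sys-1. The lit-1 peak was matched in both replicates, the wrm-1 peak in replicate 1 only (17.5) and the sys-1 peak in replicate 2 only (16.4). The lit-1 peak, 18147 bp into the gene, and the sys-1 peak lie nearer to the starts of W06F12.2 and his-68. Among 5 other GATA factor genes, which act in the endoderm and intestine, 4 had a pooled summit, 1 had one matched in both replicates and none had a thresholded one. Their highest values were 31.7 at end-3, 19.2 at elt-7 and 15.9 at elt-4, and the intestinal regulator gene elt-2 had no pooled summit. The end-3 peak was matched in both replicates, the elt-7 peak in replicate 1 only and the elt-4 peak in replicate 2 only. The shares of each list with a pooled summit lie near the 86.7% of all genes.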

How the data were processed

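The peak lists deposited by the authors cover 2 biological replicates of 1 group and were used unchanged. Per the deposited provenance text, they were made against a control, not analysed here. The authors made separate lists per replicate and another from both pooled, and thresholded the pooled peaks by the irreproducible discovery rate. The aligner and peak caller are not given in the sources used here. Per the labels, coordinates exist on ce11 and ce10; only ce11 was used, written 1-based. The deposited signal per peak is the authors' value, of unstated scale and with no read counts behind it.

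Genes came from the Ensembl release 115 annotation of WBcel235, the assembly called ce11, and sequence from RefSeq. The 12 mitochondrial protein-coding genes were left out. Summits were placed in gene windows, matched between lists within 200 bp, and scanned for motifs 50 bp to each side. Intervals are exact (Clopper-Pearson, 95%) and cover counting only. All 10 genes and all their pooled peaks are described. From the further lists, genes with a thresholded summit and the 3 strongest are named, with neighbours in signal for elt-1 and tlp-1. nhr-23 and elt-2 are named beyond that rule, after their values were seen. The genes, lists and motifs were chosen with earlier results of these data known. The window and matching steps were run on simulated summits. These were drawn from the same window definition, and for simulated pairs only recovery was checked, not false matches. Alternatives covered window reach, gene body, overlap, nearest start, thresholds, matching distance, motif width and each replicate alone. The tools were matplotlib 3.10.9, scipy 1.17.1, pandas 2.3.3 and numpy 2.4.6 under Python 3.11.15.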

Additional observations from a re-analysis of the deposited data

How the results depend on the processing

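The count of 2 genes with a thresholded summit became 1 with the gene body left out (tlp-1) and 1 with the stronger 50% of the thresholded list, and was also 2 with either replicate left out (a thresholded list was then replaced by the 214 strongest of the remaining replicate), though without replicate 2 the genes were tlp-1 and lin-22, not elt-1. The 6 genes with a pooled summit matched in both replicates became 4 with matching within 50 bp and 4 without the gene body. They were 5 with 1000 or 2000 bp upstream, 5 when the gene had to be the nearest start, and 6 with matching within 500 bp. The 38 pooled summits became 25 with 1000 bp upstream, 19 without the gene body and 21 with the stronger 50% of the pooled list, and 31 to 32 with a replicate left out. Summits per kb were 0.258 with 1000 bp upstream, 0.240 with 2000 bp, 0.340 when any overlap of the peak interval counted, 0.216 when the gene had to be the nearest start, and 0.259 to 0.273 with a replicate left out. No values over all genes are given for these settings, so they cannot be set against the 0.290 of the 5000 bp windows. The median strongest signal was 20.7 with 1000 or 2000 bp upstream, 28.6 with 10000 bp, and 11.2 to 14.7 with a replicate left out, where the signal scale is that of the other list. Around ceh-16, 10 kb to each side held 0 pooled summits and 50 kb held 30, and with a replicate left out 20 kb held 4 to 5. The cause of these shifts was not tested beyond the change of window or list. Of 55 comparisons of main results with an alternative, 36 stayed within 1.5 times (counts) or within the SD between the replicate lists (other values) and 19 moved; for single genes and motifs, 52 of 81 stayed within that SD or the exact interval and 29 moved, among them TAATTA, which went to 10.5% of summits with 100 bp to each side. For signals that SD is taken between lists each on their own scale, so a signal that stayed is not thereby shown to be stable. The strongest pooled signal around ceh-16 counted as staying, though it was 17.7 within 20 kb and 31.8 within 50 kb. The strongest signal within 10 kb of ceh-16 has no value, and matching in both replicates has none with a replicate left out. No paired analysis was possible because there is 1 group. The lists carry no read counts, so differences in list length between the replicates cannot be read as differences in depth.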
